A study of Mus musculus with 6 samples.

Results

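Medium spiny neurons are the output neurons of the striatum, and 9 genes that mark them were followed through RNA-seq libraries of mouse prefrontal cortex. They were taken from a list of striatal markers and matched by symbol to the gene identifiers of the count tables, and make up 9 of the 56923 genes listed there. The set holds 2 genes of the direct pathway (*Drd1* and *Tac1*), 4 genes of the indirect pathway (*Drd2*, *Adora2a*, *Penk* and *Six3*) and 3 genes shared by both (*Ppp1r1b*, *Rgs9* and *Pde10a*). All 9 passed the filter of at least 6 fragments in at least 1 library.

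The striatum lies beneath the frontal cortex, and its medium spiny neurons are GABAergic cells that receive dense dopamine input. Those of the direct pathway carry the dopamine receptor that raises cAMP and release substance P, whereas those of the indirect pathway carry the dopamine receptor that lowers cAMP and release enkephalin. Several of these genes are also transcribed in cortex, among them *Drd1* in deep-layer neurons and *Tac1* and *Penk* in subsets of interneurons. Which tissue or cells their RNA came from was not tested here.

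The 6 libraries came from the prefrontal cortex in 3 samples labelled *Pla2g4e* KO and 3 labelled wild type (WT). The knockout is constitutive: per the study's methods the strain is C57BL/6N-A tm1Brd Pla2g4e tm2a, a gene-trap allele carrying LacZ. The study checked the loss of the protein in hippocampus by Western blot and immunostaining, and the loss is not limited to a cell type or to adulthood. *Pla2g4e* encodes a calcium-dependent acyltransferase of the cytosolic phospholipase A2 family. In the study's dissection scheme, the tissue was the front end of the brain, separated by a coronal cut. Neither age nor sex is given for these samples in the sources used here, and nothing says whether each library is 1 animal, so p-values measure the spread between these samples, which may in part be technical.

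Library totals lay between 11792463 and 14594230 fragments (read pairs assigned to genes), and mitochondrial genes took 6.13% to 7.41%. *Pla2g4e* transcript was counted in all 6 libraries, at 5.95, 8.12 and 7.97 CPM (fragments per 1000000 of a library, after TMM scaling) in KO replicates 1 to 3 and at 7.84, 11.3 and 13.2 CPM in those labelled WT replicates 1 to 3. The library labelled WT replicate 1 thus lay within the KO range, and every direction given here follows the labels. *Xist*, transcribed from the inactive X chromosome of females, reached 1387 CPM in KO replicate 1 and, under the WT label, 969 CPM in replicate 1, and was 0.246 CPM or less in the other 4 libraries. KO replicate 2 and WT replicate 3 stand apart for the striatal genes, and each member's fold change is given with and without them.

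Promoters are shown for 3 members, since they are the regulatory sequence of a receptor of each pathway and of a direct-pathway peptide gene, whose levels are set against each other within each library below. The windows run from 250 bases before to 50 bases after the transcription start, from RefSeq on GRCm38.p6, which matched 6 of the 9 members with 8 windows. No window was matched for *Adora2a*, *Penk* and *Ppp1r1b* in the promoter set used here, which does not mean that RefSeq lacks them. Capitals mark the GC box GGGCGG or its reverse complement CCGCCC and, in *Tac1*, TGCGTCA, a variant of the cAMP response element. The *Drd1* window is chr13:54055609-54055908 on the minus strand, the *Drd2* window is chr9:49340153-49340452 on the plus strand and the *Tac1* window is chr6:7554811-7555110 on the plus strand.
Drd1: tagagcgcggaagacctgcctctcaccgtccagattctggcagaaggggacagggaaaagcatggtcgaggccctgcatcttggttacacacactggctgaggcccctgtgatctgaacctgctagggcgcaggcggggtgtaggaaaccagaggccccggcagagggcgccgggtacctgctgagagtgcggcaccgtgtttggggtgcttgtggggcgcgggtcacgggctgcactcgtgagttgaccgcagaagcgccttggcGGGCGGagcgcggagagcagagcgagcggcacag
Drd2: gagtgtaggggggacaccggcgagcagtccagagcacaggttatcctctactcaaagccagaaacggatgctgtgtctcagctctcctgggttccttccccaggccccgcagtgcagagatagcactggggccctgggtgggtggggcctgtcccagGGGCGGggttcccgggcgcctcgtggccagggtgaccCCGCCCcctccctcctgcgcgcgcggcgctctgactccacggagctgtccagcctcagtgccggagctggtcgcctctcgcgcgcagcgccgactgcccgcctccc
Tac1: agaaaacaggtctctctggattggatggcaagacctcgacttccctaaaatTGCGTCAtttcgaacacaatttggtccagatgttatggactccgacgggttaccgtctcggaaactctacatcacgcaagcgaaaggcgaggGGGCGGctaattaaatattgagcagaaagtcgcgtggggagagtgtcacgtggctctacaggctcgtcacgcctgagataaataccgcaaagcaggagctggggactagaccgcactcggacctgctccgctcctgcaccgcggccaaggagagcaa

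The windows of both dopamine receptors are rich in G and C, at 65.7% for *Drd1* and 70.3% for *Drd2*, against 54% for *Tac1*. The GC box was found, on either strand, in 7 of the 8 member windows and in 35.7% of the 32851 windows of the same length. TGCGTCA or its reverse complement TGACGCA was found in 1 of the 8, that of *Tac1*, and in 2.12% of all windows. The palindrome TGACGTCA was in 0 of the 8 and in 1.79% of all, and TATAAA or TTTATA was in 1 of the 8, that of *Rgs9*, and in 13.6% of all. In the printed windows no marked motif overlaps another. These matches describe the letters of the windows only.

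The median of the 9 markers, as the deviation from each gene's own mean, was highest in KO replicate 2 and WT replicate 3 and lowest in WT replicates 1 and 2, with KO replicates 1 and 3 between. That full order of pairs held for 5 of the 9, and *Penk*, highest in KO replicate 1, *Drd1*, *Tac1* and *Ppp1r1b* departed from it. Each of the 9 was higher in KO on average, by a log2 fold change of 0.10 (*Ppp1r1b*) to 1.95 (*Six3*), and for each the values of the groups overlapped. None of the 9 passed the adjusted threshold of 0.05 in limma-voom (0 of 19084 genes did, 0%), and 1 of the 9, *Penk*, had an unadjusted p under 0.05, against 7.82% of all genes tested in either direction and 4.38% in the direction of higher in KO. By the quasi-likelihood test of edgeR the same counts for the 9 were 0 adjusted and 1 unadjusted (7.9% of all genes unadjusted), and by DESeq2 they were 0 and 0 (4.73%). Values of the groups did not overlap for 0 of the 9, against 13% of all genes tested in either direction and 6.72% in the direction of higher in KO. A log2 fold change above 0, found for 9 of the 9, was found for 51.9% of all genes, and the median was 0.44 for the 9 and 0.0085 for all genes. In bulk RNA, a lower number of cells of a type and a lower amount of RNA per cell cannot be told apart.

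**Figure D1:**
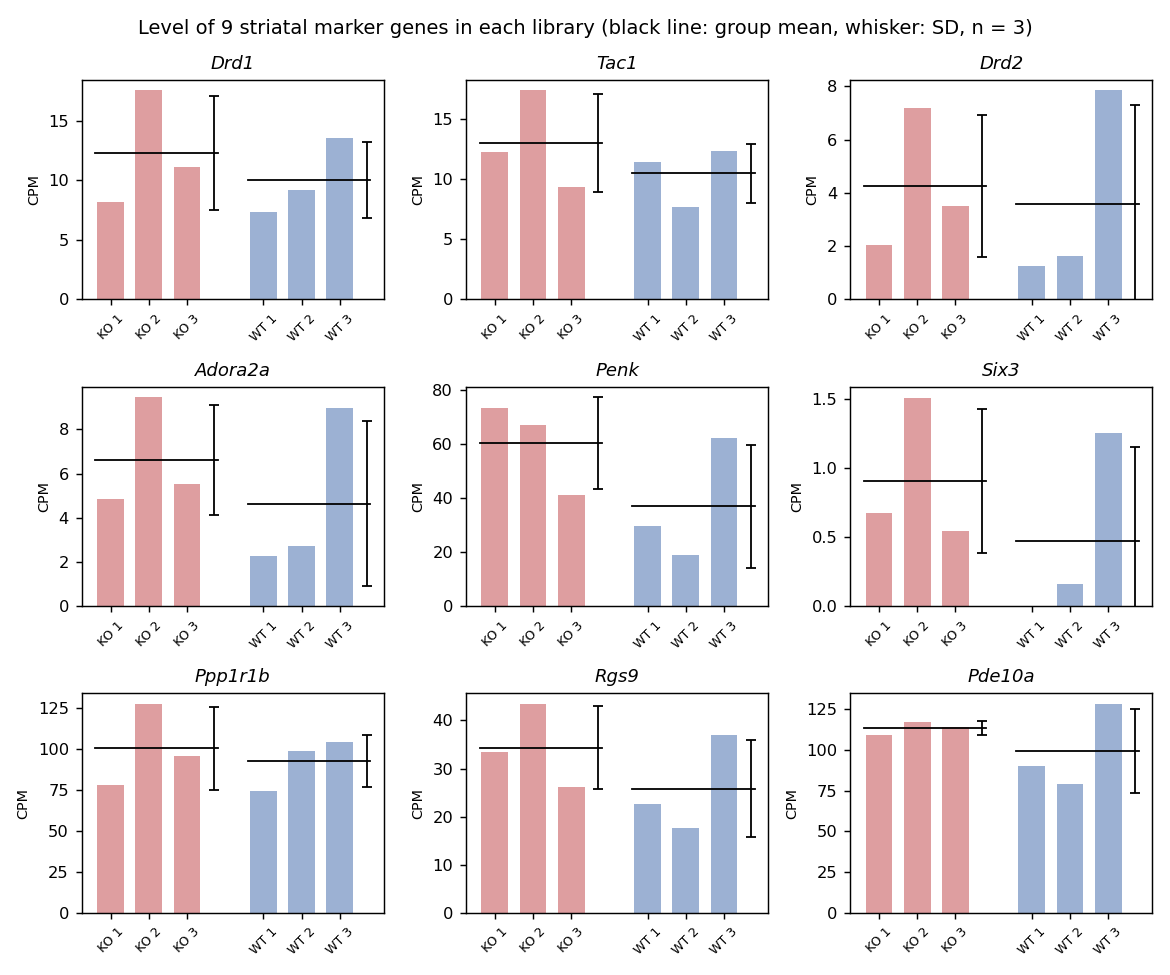
Level of each of the 9 genes in CPM (vertical axis, a linear scale from 0 in each panel) in KO replicates 1 to 3 (red bars) and WT replicates 1 to 3 (blue bars); the black line is the group mean and the whisker the SD of 3 libraries, cut at 0 where it would run below. KO 2 and WT 3 are the top pair for every gene but *Penk*, where KO 1 is highest at 73.3 CPM.

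*Drd1*, the direct-pathway dopamine receptor that couples to the stimulatory G proteins, lies on chr13 at 54205202 to 54209724 on the minus strand of GRCm39 (ENSMUSG00000021478.7). It was at 8.18, 17.6 and 11.1 CPM in KO replicates 1 to 3 and at 7.37, 9.17 and 13.6 CPM in WT replicates 1 to 3, which are 94 to 210 fragments a library. KO replicate 2 was highest and WT replicate 1 lowest, and libraries of the groups alternated down the order. The means were 12.3 ± 4.82 in KO and 10.04 ± 3.20 in WT (SD, n = 3). The log2 fold change was 0.23 (SE 0.267, 95% interval -0.35 to 0.81, limma adjusted p = 0.821), and it was -0.050 without KO replicate 2 and 0.47 without WT replicate 3.

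*Tac1* encodes the precursor of substance P and neurokinin A (chr6, 7554879 to 7565834, plus strand, ENSMUSG00000061762.13). Its levels were 12.3, 17.4 and 9.37 CPM (KO) against 11.4, 7.69 and 12.3 CPM (WT), with means of 13.03 ± 4.07 and 10.5 ± 2.46 (SD, n = 3). Only KO replicate 2 stood above all WT libraries, and KO replicate 3 lay below 2 of the 3 WT libraries. The log2 fold change was 0.28 (SE 0.222, 95% interval -0.20 to 0.76, limma adjusted p = 0.740). It was 0.065 without KO replicate 2, 0.077 without WT replicate 2, 0.41 without WT replicate 3 and 0.48 without KO replicate 3. *Drd1* and *Tac1* therefore ranked KO 2 first and WT 3 second alike, but differed in the rest of the order: WT replicate 1 was the lowest library for *Drd1* and the fourth for *Tac1*.

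*Drd2*, the indirect-pathway dopamine receptor that couples to the inhibitory G proteins, lies on chr9 at 49251927 to 49319477 on the plus strand (ENSMUSG00000032259.9). It was at 2.03, 7.20 and 3.51 CPM (KO) against 1.25, 1.64 and 7.85 CPM (WT), from 30, 86 and 45 fragments and from 16, 20 and 100 fragments. The highest and the lowest library both carried the WT label, and they differed 6.26-fold. With means of 4.25 ± 2.66 and 3.58 ± 3.70 (SD, n = 3), the difference between groups was smaller than the spread within either. The log2 fold change was 0.48 (SE 0.582, 95% interval -0.79 to 1.74, limma adjusted p = 0.830). Omitting WT replicate 1 gave -0.033, omitting KO replicate 2 gave 0.033 and omitting WT replicate 3 gave 1.29. With all libraries, the edgeR quasi-likelihood test gave 0.22, DESeq2 gave 0.24 and a fit blocked on replicate number gave 0.23.

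*Adora2a* encodes the adenosine receptor that opposes *Drd2* in the same neurons (chr10, 75152711 to 75170618, plus strand, ENSMUSG00000020178.7). Levels of 4.87, 9.46 and 5.55 CPM (KO) stood beside 2.27, 2.70 and 8.95 CPM (WT). All 3 KO libraries were above WT replicates 1 and 2, and 2 of the 3 were below WT replicate 3. The means were 6.63 ± 2.48 and 4.64 ± 3.74 (SD, n = 3), for a log2 fold change of 0.70 (SE 0.407, 95% interval -0.19 to 1.58, limma adjusted p = 0.665). Leaving out WT replicate 3 gave 1.31, leaving out KO replicate 2 gave 0.43 and leaving out WT replicate 1 gave 0.32.

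*Penk*, the proenkephalin gene, lies on chr4 at 4133531 to 4138819 on the minus strand (ENSMUSG00000045573.10). It was at 73.3, 66.9 and 41.2 CPM (KO) against 29.6, 18.8 and 62.4 CPM (WT), from 230 to 1085 fragments a library. This was the only member whose highest library was KO replicate 1, and WT replicate 3 lay above KO replicate 3, so that the groups overlapped. The means of 60.5 ± 17.0 and 37.0 ± 22.7 (SD, n = 3) gave a log2 fold change of 0.84 (SE 0.320, 95% interval 0.15 to 1.54, limma unadjusted p = 0.0217, adjusted p = 0.635). Over 16 alternatives the log2 fold change ran from 0.45, without WT replicate 2, to 1.31, without WT replicate 3, and the adjusted p from 0.255 to 0.999. On omitting KO replicate 2 the log2 fold change was 0.75.

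KO replicate 1, where *Penk* was highest, also had the highest summed level of 6 genes that mark the olfactory bulb, which lies in front of the cortex. Their sum was 305, 74.0 and 46.8 CPM (KO) against 81.4, 22.8 and 47.2 CPM (WT). Of the 6, 6 were higher in KO on average and 1 (*Th*) had an unadjusted p under 0.05 in limma (4.38% of all genes were higher at that p). No gene of that list was at 0 in every library, and *Eomes*, which marks the output neurons of the bulb, was at 23.3 CPM in KO replicate 1 and at 0 in WT replicate 2. Their part in the *Penk* values was not tested.

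*Six3* encodes a homeodomain factor needed for the development of indirect-pathway neurons (chr17, 85921036 to 85936730, plus strand, ENSMUSG00000038805.11). It was at the edge of detection, with 10, 18 and 7 fragments (KO) against 0, 2 and 16 (WT), or 0.676, 1.51 and 0.547 CPM against 0, 0.164 and 1.26 CPM. A count of 0 in WT replicate 1 allows up to 3 fragments, or 0.235 CPM, and the exact 95% lower limit of the ratio of KO replicate 2 to it was 4.70. The fitted log2 fold change of 1.95 (SE 0.934, 95% interval -0.08 to 3.98, limma adjusted p = 0.637) depends on the prior count and is no bound. Omitting WT replicate 1 gave 0.69, omitting KO replicate 2 gave 1.57 and omitting WT replicate 3 gave 3.25, and the value was 0.90 by the edgeR quasi-likelihood test and 0.93 by DESeq2. The same libraries were high and low as for *Adora2a*, with WT replicate 3 above KO replicates 1 and 3.

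*Ppp1r1b* encodes the phosphoprotein that inhibits protein phosphatase 1 once protein kinase A has acted on it (chr11, 98239230 to 98248622, plus strand, ENSMUSG00000061718.13). Its levels were 77.9, 128 and 96.1 CPM (KO) against 74.5, 98.8 and 104 CPM (WT). KO replicate 2 was highest, and KO replicates 1 and 3 were within the WT range. The means were 101 ± 25.3 and 92.6 ± 15.9 (SD, n = 3) and the log2 fold change was 0.10 (SE 0.159, 95% interval -0.25 to 0.45, limma adjusted p = 0.876). It was -0.090 without KO replicate 2, -0.050 without WT replicate 1, 0.19 without WT replicate 3 and 0.27 without KO replicate 1.

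*Rgs9* encodes a GTPase-activating protein that shortens signalling by dopamine receptors (chr11, 109116181 to 109188955, minus strand, ENSMUSG00000020599.14). It was at 33.5, 43.5 and 26.2 CPM (KO) against 22.7, 17.6 and 37.0 CPM (WT). Every KO library was above WT replicates 1 and 2, and only KO replicate 2 was above WT replicate 3. With means of 34.4 ± 8.69 and 25.8 ± 10.1 (SD, n = 3), the log2 fold change was 0.44 (SE 0.227, 95% interval -0.05 to 0.94, limma adjusted p = 0.639). Omitting WT replicate 2 gave 0.21, omitting KO replicate 2 gave 0.27 and omitting WT replicate 3 gave 0.74.

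*Pde10a* encodes a phosphodiesterase that degrades cAMP and cGMP (chr17, 8744204 to 9205480, plus strand, ENSMUSG00000023868.18). The 3 KO libraries were close to each other at 109, 117 and 114 CPM, whereas WT libraries were at 90.3, 79.3 and 128 CPM and so held both the lowest and the highest value. The means were 113.5 ± 4.21 and 99.3 ± 25.7 (SD, n = 3). The log2 fold change was 0.22 (SE 0.133, 95% interval -0.07 to 0.51, limma adjusted p = 0.677), with 0.075 on omitting WT replicate 2, 0.19 on omitting KO replicate 2 and 0.42 on omitting WT replicate 3.

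Per kilobase of exon, the levels of the 9 genes spanned a wide range, given here as FPKM (mean ± SD over 6 libraries). *Ppp1r1b* at 33.0 ± 6.62 and *Penk* at 29.8 ± 13.5 led, and did not differ beyond their spread, *Ppp1r1b* being the higher in 4 of 6 libraries. *Pde10a* at 8.28 ± 1.42 was below both in every library and above *Rgs9*, at 4.70 ± 1.51, in 6 of 6. *Tac1* at 3.46 ± 0.976 and *Drd1* at 3.08 ± 1.06 were not separated, each being the higher in 3 of 6 libraries. *Adora2a* at 1.84 ± 0.992 was above *Drd2*, at 1.54 ± 1.14, in 5 of 6 libraries, with overlapping ranges. *Six3*, at 0.127 ± 0.109, was the lowest, and its range was apart from that of *Drd2*.

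Spread within the groups was wide for the members. The pooled SD of log2 CPM within a group was 1.86 for *Six3*, 1.19 for *Drd2*, 0.83 for *Adora2a* and 0.69 for *Penk*. These were larger than for 98.8% or more of the 15204 genes whose mean log2 CPM was 0 or more, and whose median SD was 0.14. *Six3* itself lay below that level, and its SD rests in part on the prior count at 0 fragments in WT replicate 1. The direct-pathway genes had SDs of 0.50 (*Drd1*) and 0.41 (*Tac1*). The genes of both pathways had SDs of 0.46 (*Rgs9*), 0.31 (*Ppp1r1b*) and 0.26 (*Pde10a*), so that the 4 indirect-pathway genes had the 4 largest spreads of the 9. These 4 include the 3 genes of lowest level (*Adora2a*, *Drd2* and *Six3*), and also *Penk*, at 230 to 1085 fragments a library. Counting error on a log scale is larger at low counts, and its part in these spreads was not tested.

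**Figure D2:**
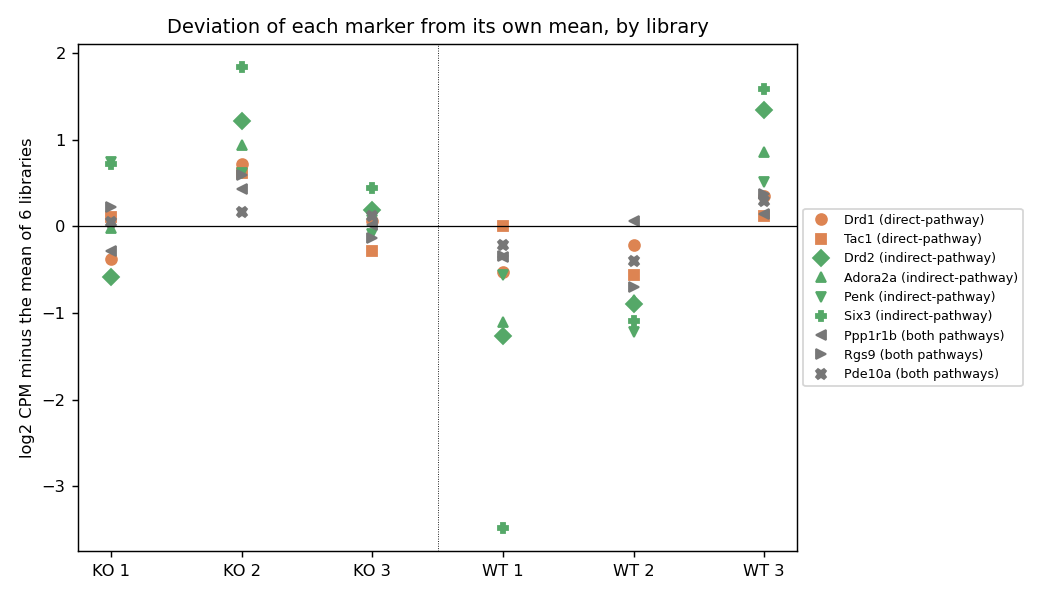
Deviation of log2 CPM from each gene's own mean over 6 libraries (vertical axis, log2 units) by library (horizontal axis), one marker shape per gene. All 9 genes lie above their mean in KO 2 and WT 3, and 1 of 9 does in WT 1 and in WT 2.

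The libraries moved the members together. All 9 were above their own 6-library mean in KO replicate 2 and in WT replicate 3, 5 in KO replicate 1, 6 in KO replicate 3, and 1 each in WT replicates 1 and 2. These pairs of libraries were picked after the values of the 9 genes were seen, so the shares over all genes beside them are a description and no test. KO replicate 2 and WT replicate 3 were the top pair for 8 of the 9 genes, against 7.6% of all genes tested. WT replicates 1 and 2 were the lowest pair for 6 of the 9, against 12.1% of all genes, and both held for 5 of the 9 (*Drd2*, *Adora2a*, *Six3*, *Rgs9* and *Pde10a*), against 2.08%. The 9 genes share their libraries and are not independent of each other.

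Set against each WT library in turn, the KO libraries gave unlike counts. All 9 genes were higher in KO replicate 2 than in WT replicate 1 and than in WT replicate 2. Against WT replicate 3, 7 of the 9 were higher in KO replicate 2, 1 (*Penk*) in KO replicate 1 and 0 in KO replicate 3. Between the libraries with *Xist*, 9 of the 9 were higher in KO replicate 1 than in WT replicate 1. In the 4 libraries without it the limma log2 fold changes were 0.12 (*Ppp1r1b*) to 0.84 (*Six3*), all 9 above 0. In that fit 0 of the 9 had an unadjusted p under 0.05, against 3.77% of all genes, and the lowest adjusted p of the 9 was 0.999.

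Without KO replicate 2, 7 of the 9 genes were higher in KO, with a median log2 fold change of 0.19 and 0 at an unadjusted p under 0.05 in limma (7.43% of all genes in that fit). Without WT replicate 3, 9 of the 9 were higher in KO, with a median of 0.74, 5 had an unadjusted p under 0.05 and 6 did not overlap, and the lowest adjusted p was 0.255. In that fit 11.8% of all genes had an unadjusted p under 0.05, and 15.6% were higher in KO without overlap, so the background was larger too. Without WT replicate 1, 7 of the 9 were higher, with a median of 0.32, and without WT replicate 2 the median was 0.19, with 0 at an unadjusted p under 0.05 in limma (4.13% of all genes).

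Counting error was narrow for *Penk* and wide for the receptors of the indirect pathway. *Penk* in KO replicate 2 was 3.55-fold its level in WT replicate 2 (exact 95% counting interval 3.07 to 4.13) and 1.07-fold its level in WT replicate 3 (0.971 to 1.18). *Drd2* in KO replicate 2 was 5.74-fold WT replicate 1 (3.34 to 10.5) and 0.918-fold WT replicate 3 (0.680 to 1.24). For *Adora2a* the same ratios were 4.16 (2.75 to 6.50) and 1.06 (0.808 to 1.38). The interval of the KO 2 to WT 3 ratio included 1 for these 3 genes and for *Six3*. It lay above 1 for *Drd1* (1.05 to 1.59), *Tac1* (1.14 to 1.75), *Ppp1r1b* (1.14 to 1.32) and *Rgs9* (1.03 to 1.33), and below 1 for *Pde10a* (0.850 to 0.982). These intervals cover counting error only, since fragments carry no molecular identifiers.

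The direct- and indirect-pathway genes were then compared within each library, where the scaling of the library cancels. *Drd1* over *Drd2*, as a ratio of fragments, was 4.03, 2.44 and 3.16 (KO) against 5.88, 5.60 and 1.73 (WT). The WT libraries held the 2 highest ratios and the lowest, and the exact 95% counting interval in WT replicate 3 (1.34 to 2.24) did not reach those in WT replicate 1 (3.44 to 10.7) or WT replicate 2 (3.46 to 9.52). *Tac1* over *Penk* was 0.168, 0.260 and 0.227 (KO) against 0.386, 0.409 and 0.197 (WT). For this ratio WT replicate 3 (0.165 to 0.235) lay among the KO libraries, and WT replicates 1 and 2 lay above them. *Drd1* over *Adora2a* was 1.68, 1.86 and 2 (KO) against 3.24, 3.39 and 1.52 (WT).

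**Figure D3:**
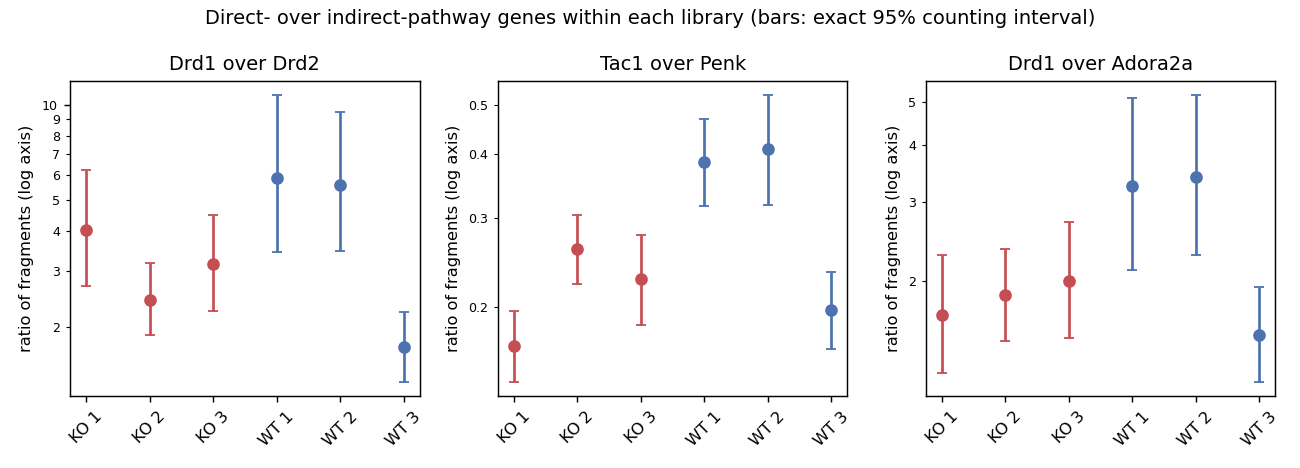
Ratio of fragments of a direct- to an indirect-pathway gene (vertical axis, log scale) in each library, with exact 95% counting intervals as bars. WT 1 and WT 2 have the highest ratios in each panel, and WT 3 is at 1.73 for *Drd1* over *Drd2*, below all KO libraries.

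Over the members, the mean log2 CPM of the 2 direct-pathway genes minus that of the 4 indirect-pathway genes was 1.07, 0.93 and 1.13 (KO) against 2.76, 2.04 and 0.58 (WT). The group means were 1.04 (SD 0.10) and 1.79 (SD 1.11), a difference of -0.75 with overlapping groups. It was -0.27 without WT replicate 1 and -1.36 without WT replicate 3. Since *Six3* had 0 fragments in WT replicate 1, the value there rests on the prior count of 0.5, and with a prior count of 2 the difference was -0.56. Indirect-pathway genes therefore had the wider swing between libraries: their median deviation was 1.08 in KO replicate 2, 1.10 in WT replicate 3, -1.18 in WT replicate 1 and -0.99 in WT replicate 2. For the direct-pathway genes the same medians were 0.67, 0.23, -0.26 and -0.39. The genes of both pathways lay at 0.43, 0.29, -0.34 and -0.41.

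Other genes of the striatum were listed to see whether they followed the 9. Of 27 listed, 24 were tested: *Isl1* and *Drd3* did not pass the filter and 1 (*Gpr52*) was not matched to an identifier. Of the 24, 20 were higher and 4 lower in KO on average, with a median log2 fold change of 0.22, against 0.44 for the 9 members. None had an adjusted p under 0.05 in limma, and 3 had an unadjusted p under 0.05, against 7.82% of all genes tested. These were *Actn2* and *Rasgrp2*, higher (4.38% of all genes), and *Pdyn*, lower (3.44%), *Rasgrp2* being named after its value was seen. KO replicate 2 and WT replicate 3 were the top pair for 9 of the 24, against 7.6% of all genes tested. WT replicates 1 and 2 were the lowest pair for 7, against 12.1%, and both held for 5, against 2.08%.

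Among the other genes of the direct pathway, 4 of 5 tested were higher in KO and 1 lower, and none had KO 2 and WT 3 as its top pair. *Pdyn*, which encodes the dynorphin precursor, was at 19.7, 19.9 and 22.3 CPM (KO) against 29.7, 25.2 and 22.9 CPM (WT). All 3 KO libraries were below all 3 WT libraries (13% of all genes tested did not overlap in either direction), with a log2 fold change of -0.32 (SE 0.113, limma unadjusted p = 0.0141, adjusted p = 0.635). *Slc35d3* was at 3.65, 3.10 and 1.25 CPM (KO) against 1.65, 0.737 and 2.59 CPM (WT), and *Ebf1*, a transcription factor, had a log2 fold change of 0.24.

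Both other indirect-pathway genes tested were higher in KO on average. *Gpr6*, an orphan receptor of these neurons, was at 1.28, 2.60 and 1.33 CPM (KO) against 0.392, 0.573 and 3.06 CPM (WT), in the library order of *Drd2*. *Sp9*, a transcription factor of indirect-pathway neurons and of the olfactory bulb, was at 18.3, 8.63 and 5.78 CPM (KO) against 6.35, 3.77 and 7.61 CPM (WT), highest in KO replicate 1 as *Penk* was. The log2 fold changes were both 0.81, with overlapping groups.

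Of 17 further striatal genes tested, 14 were higher and 3 lower in KO, with a median of 0.21. *Syndig1l* was at 8.65, 9.05 and 5.39 CPM (KO) against 3.29, 2.13 and 11.1 CPM (WT), in a pattern like that of *Adora2a* but with WT replicate 3 highest. *Actn2*, an actin cross-linking protein, had a log2 fold change of 0.44 (SE 0.139, limma unadjusted p = 0.00750, adjusted p = 0.635) and *Lrrc10b* one of 0.43. For *Actn2*, KO replicate 3 at 17.963 CPM lay just under WT replicate 3 at 18.052 CPM, so the groups overlapped.

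**Figure D4:**
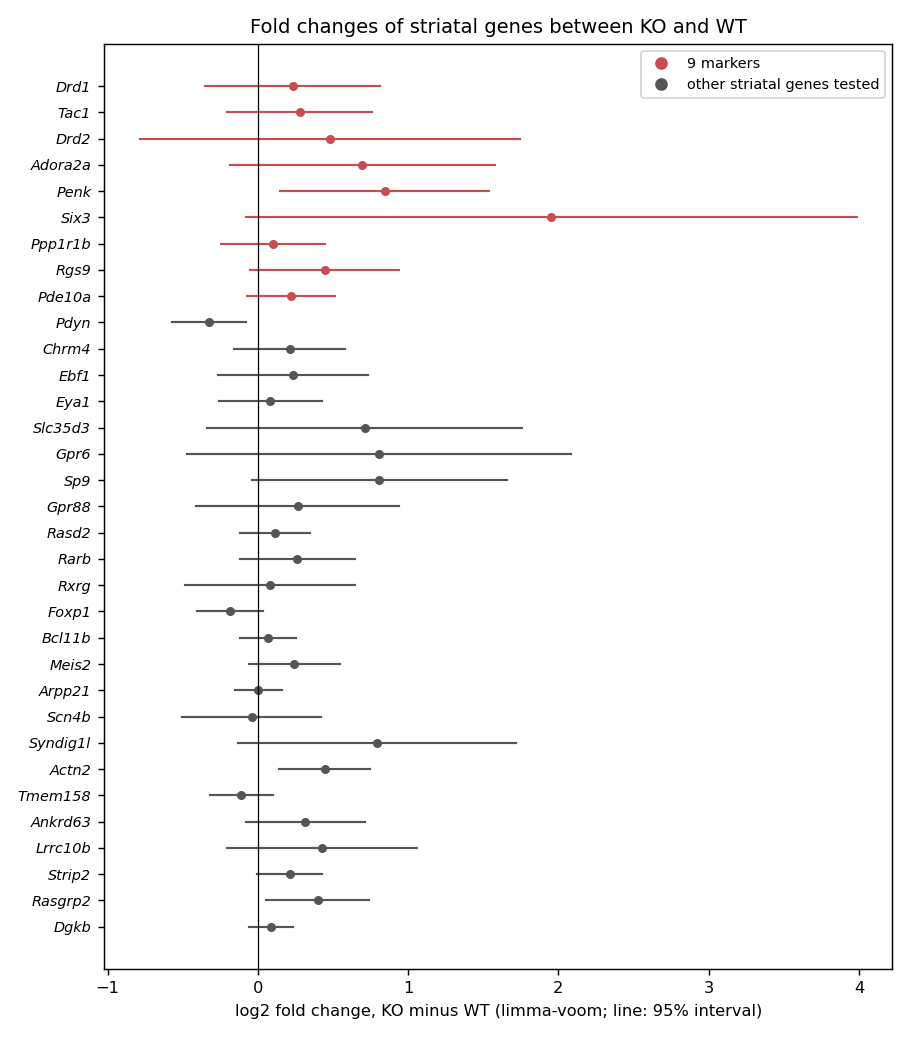
Log2 fold change of KO over WT from limma-voom (horizontal axis) for the 9 members (red) and the other striatal genes tested (grey), with 95% intervals as lines. All 9 members lie right of 0, and the interval of *Penk* (0.15 to 1.54) is the only one of theirs that does not reach 0.

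Most of the dopamine and cAMP signalling genes that act with the members did not share their direction. Of 18 listed and tested, 6 were higher and 12 lower in KO on average, with a median log2 fold change of -0.12. KO replicate 2 and WT replicate 3 were the top pair for 4 of the 18, against 7.6% of all genes tested. WT replicates 1 and 2 were the lowest pair for 2, against 12.1%. None passed the adjusted threshold in limma. At an unadjusted p under 0.05, 0 of them were higher in KO (4.38% of all genes) and 2 lower (3.44%). The latter were *Prkar1b*, a regulatory subunit of protein kinase A (-0.23, unadjusted p = 0.0178), and *Prkaca*, its catalytic subunit (-0.17, unadjusted p = 0.0403), both also abundant outside the striatum. *Gng7*, a subunit of the stimulatory G protein of striatal neurons, followed the library order of the members at 106, 130 and 100 CPM (KO) against 65.1, 81.7 and 125 CPM (WT) (log2 fold change 0.35). The values of the groups did not overlap for *Drd4*, higher in KO at under 1 CPM, and *Ppp3ca*, lower in KO, both named after their values were seen. Of all genes tested, 13% did not overlap in either direction.

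Markers of other cells and regions moved with the libraries in part. The 4 genes of claustrum and endopiriform nucleus summed to 78.7, 144 and 91.7 CPM (KO) against 62.9, 71.0 and 115 CPM (WT). KO replicate 2 and WT replicate 3 had the highest sums and WT replicates 1 and 2 the lowest, the same pairs as for the members. The lowest single library was WT replicate 1 here and WT replicate 2 for the sum of the members. Of the 4, 4 were higher in KO and 0 had an unadjusted p under 0.05 in limma (4.38% of all genes were higher at that p). *Nr4a2* of that list was at 16.6, 44.2 and 19.3 CPM (KO) against 8.94, 12.4 and 30.7 CPM (WT). The 6 oligodendrocyte genes summed to between 2179 and 2525 CPM in KO and between 1694 and 2803 CPM in WT. Again WT replicates 1 and 2 were lowest, and here WT replicate 3 was highest. Of these genes, 6 of 6 were higher in KO, with a median log2 fold change of 0.19 and 0 at an unadjusted p under 0.05 in limma. The 4 cholinergic genes, low throughout, summed to 2.23, 4.10 and 2.66 CPM (KO) against 2.04, 2.54 and 3.61 CPM (WT), in the library order of *Drd1*, with 2 of 4 higher in KO. No gene of these lists was at 0 in every library. Their part in the members' values was not tested.

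The remaining lists did not have KO replicate 2 and WT replicate 3 as their top pair by sum. The 4 dopamine neuron genes summed to between 10.2 and 46.2 CPM in KO and between 4.83 and 13.2 CPM in WT, highest in KO replicate 1, where *Th*, which is also in the olfactory bulb list, made up 39.1 of the 46.2 CPM. Fitted log2 fold changes of the 8 cortical projection neuron genes were all below 0, 3 of them at an unadjusted p under 0.05 in limma (3.44% of all genes were lower at that p), although that of *Camk2a* was close to 0 and its mean CPM slightly higher in KO. Their sums were 6208 to 7435 CPM in KO and 6961 to 7442 CPM in WT. Of 8 interneuron genes, 7 were lower, 3 of them at an unadjusted p under 0.05 and 3 without overlap. The other 1 was higher, also at an unadjusted p under 0.05. Of all genes tested, 7.82% had such a p in limma and 13% did not overlap, in either direction. The interneuron genes summed to 353 to 372 CPM in KO and 407 to 463 CPM in WT. The 3 genes for GABA synthesis and transport, used by medium spiny neurons and interneurons alike, summed to 495 to 886 CPM in KO and 443 to 628 CPM in WT. Fitted log2 fold changes were above 0 for 3 of 6 layer 6 genes, 5 of 5 astrocyte genes and 2 of 3 choroid plexus genes tested, the last at 0.07 (*Kl*) and 0.03 (*Kcnj13*). The difference of mean CPM had the opposite sign for *Ccn2* of layer 6, *Gfap* of astrocytes and *Kcnj13*, named after their values were seen. The other choroid plexus gene, *Ttr*, was lower in KO at -3.22 without overlap, with 26.8 CPM in WT replicate 2. None of these lists held a gene at 0 in all libraries, and their part in the members' values was not tested.

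**Figure D5:**
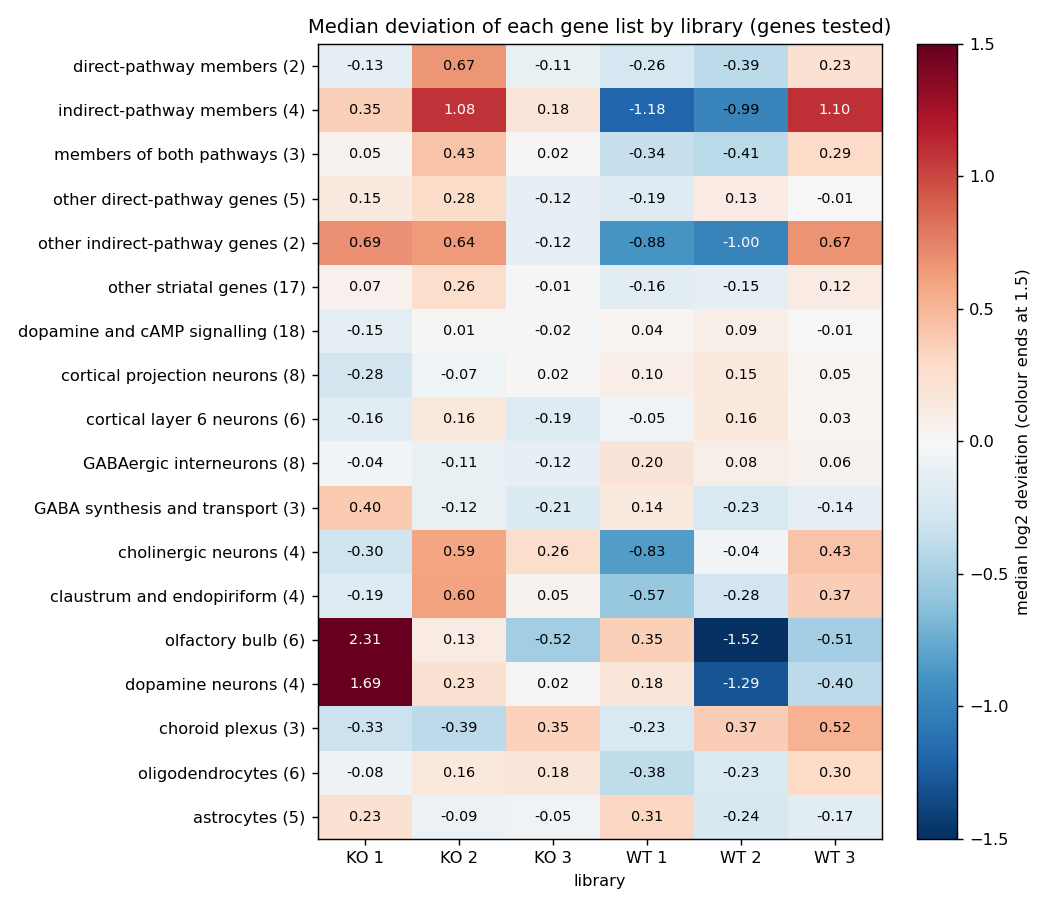
Median deviation of log2 CPM from the 6-library mean (colour, log2 units, ends at 1.5) for each gene list (rows, with the number of genes tested) in each library (columns). Indirect-pathway members range from -1.18 in WT 1 to 1.10 in WT 3, and the olfactory bulb list is highest in KO 1.

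The 6 genes outside the lists whose deviations over the 6 libraries were most like the median of the 9 members were *Lsm5*, *Gk5*, *Mir186*, *Rtkn2*, *Trim36* and *Hhex*. The measure was the root mean square difference of log2 deviations over 6 libraries, which ran from 0.104 to 0.140 for them among 15105 genes. Among the members it ran from 0.129 for *Rgs9* to 1.44 for *Six3*, so *Rgs9* was the member nearest to the common pattern. *Mir186* lies within *Zranb2* on the same strand, and its short hairpin is not what a polyadenylated RNA library is made for. For all 6 the groups overlapped. Their counts were low, from 10 fragments (*Hhex* in WT replicate 2) to 95 (*Trim36* in KO replicate 2). The part of counting error in their patterns was not tested.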

How the data were processed

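Polyadenylated RNA of 6 prefrontal cortex samples was sequenced with a stranded kit. The deposited values are raw counts of fragments per gene, made by the authors with STAR 2.7.9a and featureCounts 1.6.0, per the file headers and the submitters' processing notes, in paired-end, reverse-stranded mode over exons of GENCODE on GRCm39. Positions are those in the files, whose build is later than the one in the study's methods. Groups were taken from the titles. Symbols matched 52073 of 56923 identifiers, and all 9 members matched.

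Genes with at least 6 fragments in at least 1 of 6 libraries were tested with TMM scaling in edgeR 4.0.16 and voom in limma 3.58.1 (R 4.3.3), the tools and filter of the study's methods, here two-sided and without covariates, with p-values adjusted by Benjamini-Hochberg over all 19084 genes at a threshold of 0.05. CPM is scaled by TMM, FPKM is CPM per kilobase of exon, and log2 CPM for deviations and pathway levels used a prior count of 0.5. *Six3* and *Pde10a* overlap other annotated genes, and strand-specific counting does not part genes of the same strand. Intervals of fragment ratios are exact at 95%. Library totals set the precision: at 100 fragments or fewer, as for *Drd2* and *Six3*, counting error is wide. On simulated counts the fit recovered 95% of the 2-fold changes and 100% of the 4-fold changes among 18493 genes tested, and 6.70% of its 209 calls were unchanged genes. In a separate run with no changed gene it made 0 calls. The recovery was not taken apart by spread, so it need not hold for genes as variable as the indirect-pathway members. Changes were placed only in genes above a minimum mean CPM that *Drd2* and *Six3* do not reach, so the recovery does not cover them.

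The members and lists were chosen with earlier results of these data known, so no test over a list was made. By rule, all members, *Pla2g4e*, the 6 genes of most similar pattern and the 3 genes of largest absolute fold change at a mean of at least 1 CPM in each striatal and signalling list were named. Lists of other cell types are given mainly by counts and sums. Alternatives were the edgeR quasi-likelihood test, DESeq2 1.42.0, other scalings and filters, library quality weights, a replicate block, a covariate for *Xist* above 100 CPM, leaving out those libraries, and leaving out each library.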

Additional observations from a re-analysis of the deposited data

How the results depend on the processing

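With 3 libraries a group, no gene passed the adjusted threshold in limma-voom, in which 1492 genes had an unadjusted p under 0.05. DESeq2 gave 1 adjusted call, the *Xist* covariate 24, the fit without the libraries with *Xist* 3, and leaving out each library 0 to 1. None of these fits called a member. The count of members at an unadjusted p under 0.05 was 1 in limma (7.82% of all genes), 0 by DESeq2 (4.73%), 3 with no filter beyond 1 fragment (7.06%), 0 without the libraries with *Xist* (3.77%), and 0 to 5 when each library was left out (4.13% to 11.8%). Members without overlap went from 0 to 6 when each library was left out (6 without WT replicate 3, against 15.6% of all genes, and 1 without KO replicate 3, against 12.8%, higher in KO). When each library was left out, the log2 fold change ran from -0.050 (without KO replicate 2) to 0.51 for *Drd1*, from -0.033 (without WT replicate 1) to 1.29 for *Drd2* and from -0.090 (without KO replicate 2) to 0.27 for *Ppp1r1b*, which was -0.050 without WT replicate 1. The cause was not tested. The difference in direct minus indirect level stayed below 0, from -1.36 (without WT replicate 3) to -0.27 (without WT replicate 1), and was -0.56 with a prior count of 2 and -0.42 for *Drd1* and *Tac1* against *Drd2* and *Penk* alone. *Six3* was not tested under the stricter filter. Same-numbered libraries of the groups had correlations of their deviations of 0.23, 0.045 and -0.016. With 3 libraries a group, these values cannot decide whether the numbers pair the libraries. KO replicate 1 and WT replicate 1, which gave the largest of them, are the libraries with *Xist*. Blocked on replicate number, the limma fit gave 0 adjusted calls and 1 member at an unadjusted p under 0.05. The median log2 fold change over the members was then 0.29. Depth limits *Six3* most, at 0 to 18 fragments a library.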
